A study of Mus musculus with 16 samples.

Results

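The 7 genes described here encode the ligand BAFF (Tnfsf13b), the receptors for BAFF and APRIL (Tnfrsf13c, Tnfrsf13b and Tnfrsf17), and the adaptors and kinase behind them (Traf3, Traf2 and Map3k14). They were chosen by symbol from the 39179 genes of a raw count table, and each symbol matched 1 row. The libraries are poly(A) RNA of spleen B cells from 15-week-old NOD.LT mice, a line of non-obese diabetic mice. For 5 weeks the mice ate 1 of 4 diets. NP is taken here as the diet without the added starch. HAMS contains high-amylose maize starch, HAMSA the same starch carrying acetate, and HAMSB the starch carrying butyrate. Each diet had 4 libraries, which keep the replicate numbers of the labels in their names: NP has 1, 3, 4 and 5, HAMS has 1, 4, 5 and 6, HAMSA has 1, 2, 3 and 6, and HAMSB has 1, 2, 5 and 6. Assigned counts a library ran from 15053965 to 46206200, and the HAMSA libraries were the shallowest. All 4 groups share the strain, the age and the isolation, and no genotype or sex is given. B cells were kept by negative selection with a magnetic kit, so cells that escape the antibodies remain. The labels do not say which animal gave which library, so the p-values measure the spread between libraries, which may be technical.

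BAFF and APRIL are ligands of the tumour necrosis factor family that myeloid, stromal and other cells release, and B cells depend on BAFF to survive in the spleen. The BAFF receptor (Tnfrsf13c) binds BAFF alone, whereas TACI (Tnfrsf13b) and BCMA (Tnfrsf17) bind BAFF and APRIL. BCMA is chiefly a receptor of plasma cells. In resting B cells TRAF3 and TRAF2, with cIAP ubiquitin ligases, mark the kinase NIK (Map3k14) for degradation. Engaged BAFF receptor leads to loss of TRAF3, NIK then accumulates, and the noncanonical NF-κB pathway processes p100 (Nfkb2) to a partner of RelB. Much of this control acts on proteins, which RNA counts do not measure.

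The BAFF receptor carried the clearest difference between the diets, so the sequence before its start is shown with those of TACI, whose level moved the other way, and of Traf3. The windows are RefSeq sequences of build GRCm38.p6, 5′ to 3′ on the strand of the gene. For both receptors they hold the 250 bases before the start that RefSeq annotates, which for Tnfrsf13c lies upstream of the GENCODE start used for the gene coordinates below. They lie at chr15:82224381-82224630 (minus strand, Tnfrsf13c) and chr11:61126505-61126754 (plus strand, Tnfrsf13b). Capitals in the Tnfrsf13c window mark 4 E-boxes (CANNTG), the motif of basic helix-loop-helix factors such as the E proteins of B cells.
Tnfrsf13c: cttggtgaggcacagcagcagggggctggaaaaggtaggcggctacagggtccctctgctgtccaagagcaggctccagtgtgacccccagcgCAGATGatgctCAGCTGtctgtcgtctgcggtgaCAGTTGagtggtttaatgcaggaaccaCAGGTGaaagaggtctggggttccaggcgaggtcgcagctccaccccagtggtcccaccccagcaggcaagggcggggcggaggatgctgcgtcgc
Tnfrsf13b: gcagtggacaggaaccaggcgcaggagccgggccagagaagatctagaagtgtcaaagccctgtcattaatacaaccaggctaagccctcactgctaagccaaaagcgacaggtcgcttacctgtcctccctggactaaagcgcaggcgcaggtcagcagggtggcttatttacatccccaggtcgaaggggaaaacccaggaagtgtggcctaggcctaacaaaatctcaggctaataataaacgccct
The Tnfrsf13b window held no match to any of the 4 motifs searched on both strands, which were the E-box, the octamer (ATGCAAAT), the NF-κB consensus and the half-site of cAMP response elements (TGACG). At least 4 E-boxes were present in 3.84% of 32817 promoter windows of this length, and at least 1 in 66.2% (4 of the 7 genes here). Just before the Traf3 start lies an NF-κB consensus, in capitals in the last 30 bases (chr12:111166340-111166369, plus strand), a match found in 7.25% of the windows.
Traf3: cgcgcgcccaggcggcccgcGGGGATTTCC
The other 2 motifs occurred in 17.7% (the half-site) and 1.60% (the octamer) of the windows. A match describes the letters only, and no binding was measured here.

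Levels between genes were compared as RPKM, which is CPM per kilobase of exon. CPM are counts scaled to a common library total, here with the TMM factors of the edgeR fit. Tnfrsf13c had the highest mean level over the 16 libraries, 218 RPKM, and 98.6% of 14832 ranked genes lay lower. Tnfrsf13b followed with 110 RPKM, and its highest library (131 RPKM) stayed under the lowest library of Tnfrsf13c (159 RPKM). Both are receptors of the resting B cell, and 97.1% of the ranked genes lay below Tnfrsf13b. Traf3 had 26.3, Traf2 19.6 and Map3k14 17.8 RPKM, and the ranges of these 3 neighbours overlapped. Tnfrsf17 had 1.37 RPKM. Tnfsf13b was at the bottom of the order with 0.0319 RPKM.

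**Figure D1:**
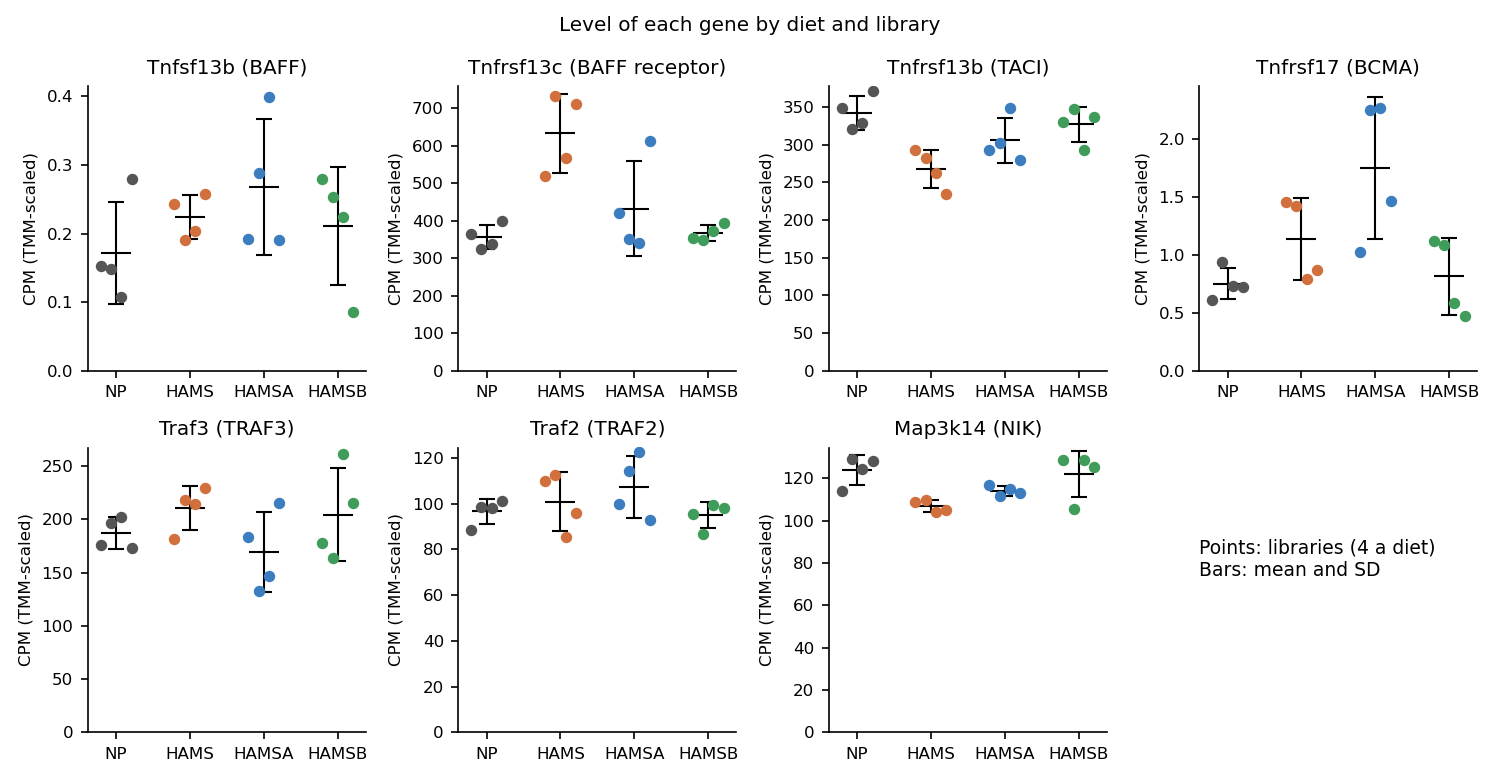
Level of the 7 genes in CPM (vertical axes, from 0) in each library (points) by diet, with mean and SD of 4 libraries. The 4 HAMS libraries of Tnfrsf13c (519 to 731 CPM) sit above every NP and HAMSB library, and HAMSA 6 (614 CPM) sits among them.

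Tnfrsf13c (ENSMUSG00000068105, chromosome 15, 82221743 to 82224369, minus strand, 2048 exonic bases) transmits the survival signal of BAFF. With NP, libraries 1, 3, 4 and 5 had 364, 325, 338 and 400 CPM. HAMS libraries 1, 4, 5 and 6 had 519, 731, 568 and 712 CPM. All 4 HAMS libraries were thus above all 4 NP libraries. HAMSA libraries 1, 2, 3 and 6 had 420, 352, 340 and 614 CPM, so 1 of them lay in the HAMS range and 3 below it. HAMSB libraries 1, 2, 5 and 6 had 354, 348, 373 and 393 CPM, within the NP range and below every HAMS library.

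Tnfrsf13c was higher with HAMS (633 ± 105 CPM, SD, n = 4) than with NP (357 ± 32.9), 1.77-fold or 0.83 ± 0.17 on the log2 scale (SE, edgeR adjusted p = 0.0105). Each pair of diets was compared with edgeR's quasi-likelihood F-test, adjusted by Benjamini-Hochberg over the 15021 genes kept by a filter on low counts, with a threshold of 0.05. The call held in 17 of 17 other settings and leave-one-out fits. Against HAMS, Tnfrsf13c was lower with HAMSB (367 ± 20.3 CPM), by -0.78 ± 0.17 on the log2 scale (edgeR adjusted p = 0.0212). That second call is weaker, because it was lost when HAMS 4, HAMS 6 or any 1 of HAMSB 1, 2, 5 and 6 was left out. The adjusted p was then 0.0522 to 0.0922, with log2 fold changes that stayed between -0.87 and -0.71 over all 8 omissions.

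HAMSA gave 432 ± 126 CPM of Tnfrsf13c. Its log2 differences were -0.55 ± 0.16 from HAMS (adjusted p = 0.300), 0.23 ± 0.16 from HAMSB (0.413) and 0.28 ± 0.16 from NP (0.297). HAMSA 6 decided the first of these. Without HAMSA 6 the difference from HAMS was -0.77 with an adjusted p of 0.0288. HAMSB and NP differed by 0.04 ± 0.16 (adjusted p = 0.999). The comparisons share libraries: HAMS enters both called contrasts, so the rise against NP and the lower level with HAMSB are not independent of each other.

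Tnfrsf13b (ENSMUSG00000010142, chromosome 11, 61126755 to 61149372, plus strand, 2836 exonic bases) encodes TACI, which restrains B cell numbers and promotes class switching and plasma cell responses. NP libraries 1, 3, 4 and 5 had 348, 320, 329 and 371 CPM. HAMS libraries 1, 4, 5 and 6 had 292, 283, 262 and 234 CPM, all below every NP and every HAMSB library. Those of HAMSA (1, 2, 3 and 6) had 293, 302, 348 and 279 CPM and overlapped with all 3 other diets. HAMSB libraries 1, 2, 5 and 6 had 331, 348, 294 and 336 CPM.

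Tnfrsf13b fell with HAMS (268 ± 25.6 CPM) against NP (342 ± 22.5), 0.783-fold or -0.35 ± 0.10 on the log2 scale. The adjusted p of 0.04996 was just under the threshold. The call held in 5 of 17 other settings, with adjusted p between 0.0075 and 0.167 and every log2 value between -0.44 and -0.29. With HAMSB (327 ± 23.5 CPM) the difference from HAMS was 0.29 ± 0.10 (edgeR adjusted p = 0.182). The HAMSA level was 306 ± 29.9 CPM, which differed by 0.19 ± 0.10 from HAMS (adjusted p = 0.445) and by -0.16 ± 0.10 from NP (0.294).

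The ratio of the 2 receptor RNAs within a library needs no scaling between libraries. It was examined after the opposite differences had been seen. Per kilobase of exon, the ratio of Tnfrsf13c to Tnfrsf13b was 1.45, 1.41, 1.42 and 1.49 in NP libraries 1, 3, 4 and 5. It was 2.46, 3.58, 2.9998 and 4.21 in HAMS libraries 1, 4, 5 and 6. The NP ratios lay within a narrow band and every HAMS ratio was above it. The ratio was 1.98, 1.62, 1.35 and 3.04 in HAMSA libraries 1, 2, 3 and 6, and 1.48, 1.39, 1.76 and 1.62 in HAMSB libraries 1, 2, 5 and 6. HAMSA 6 again lay within the HAMS range, and no HAMSB library did. The mean was 1.44 ± 0.0375 with NP, 3.31 ± 0.752 with HAMS, 2.00 ± 0.743 with HAMSA and 1.56 ± 0.163 with HAMSB. HAMS exceeded NP by 1.17 and HAMSB was below HAMS by -1.06 on the log2 scale. Both genes already separate the libraries in these contrasts, in opposite directions, so the ratio had to separate them too. It is given as a description, with no test. HAMSA against HAMS gave -0.77, and HAMSB against NP gave 0.11.

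**Figure D2:**
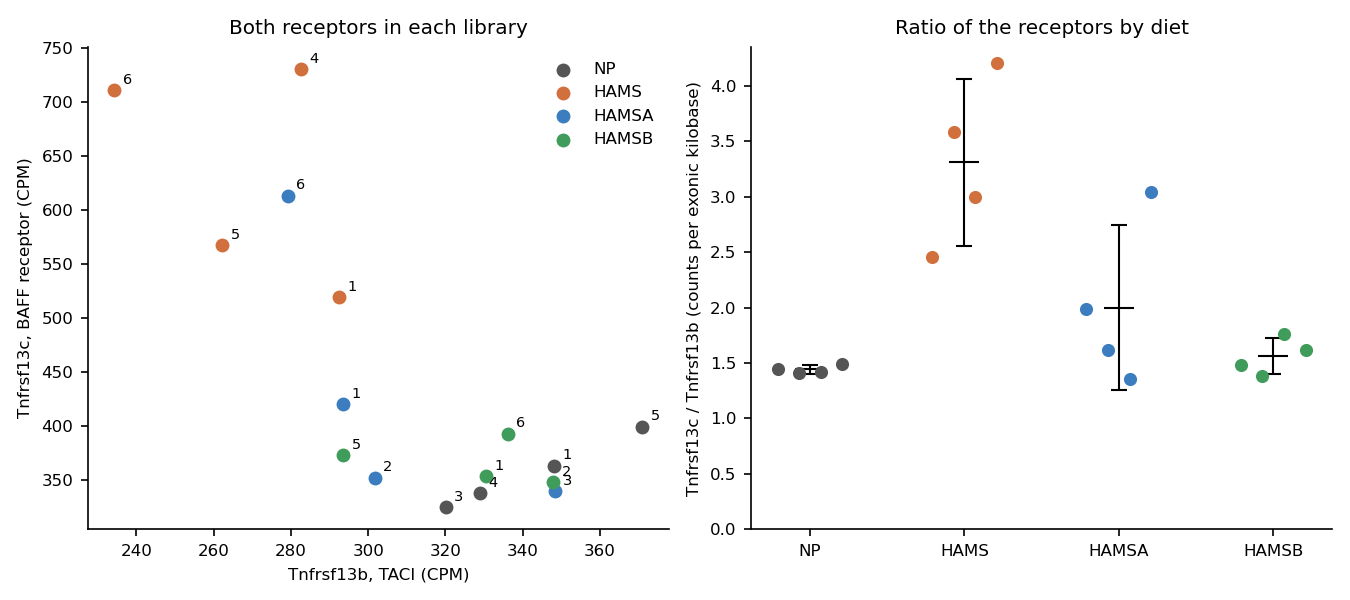
Left, Tnfrsf13c against Tnfrsf13b in CPM, 1 point a library with its number, coloured by diet. Right, the ratio of both per exonic kilobase by diet, with mean and SD of 4 libraries; HAMS ratios run from 2.46 to 4.21 and NP ratios from 1.41 to 1.49.

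Other genes also differed between the diets, some of them alongside Tnfrsf13c, and their part in the result was not tested. Of 8 heat shock genes, chosen after the data were seen, 8 rose with HAMS against NP, beside 2.27% of all genes. With HAMSB against HAMS 8 fell, beside 1.24% of all genes. In HAMSA against NP 1 of the 8 rose, beside 1.41% of all genes called. Their summed level was 829 to 1108 CPM with NP, 1564 to 3062 with HAMS, 866 to 2723 with HAMSA and 721 to 899 with HAMSB. HAMSA 6 held the HAMSA maximum of both this sum and Tnfrsf13c. Of 10 immediate early genes, also chosen after the data were seen, 6 rose with HAMS against NP, beside 2.27% of all genes. With HAMSB against HAMS 6 of the 10 fell, beside 1.24%. In HAMSA against NP 4 rose, beside 1.41% of all genes called, and in HAMSA against HAMSB 4, beside 0.779%. Tnfrsf13c was called in neither of these last comparisons. In HAMSA against HAMS 5 of the 10 had a positive log2 difference. Fos and Jun had mean levels of 13.9 and 48.2 CPM with HAMSA and 4.21 and 35.9 with HAMS. Sik1, the highest of the 10 with HAMS, had 345 CPM there, 112 with NP and 53.1 with HAMSB. The sum of the 10 was 311 to 365 CPM with NP, 708 to 1040 with HAMS, 443 to 714 with HAMSA and 270 to 367 with HAMSB. B cell markers summed to between 9895 and 12308 CPM over all libraries and the diets overlapped, with all 6 markers detected in every library. Of these 6, Cd22 fell against NP with HAMS (-0.46, edgeR adjusted p = 0.0181) and with HAMSA (-0.47, edgeR adjusted p = 0.0387). Markers of other cells differed between the diets too. Of 12 macrophage or monocyte markers, 6 fell with HAMS against NP, beside 2.06% of all genes. Their sums were 141 to 268 CPM with HAMS and 224 to 516 with NP. Sums were 239 to 404 CPM with HAMSA and 163 to 441 with HAMSB. In HAMSB against HAMS edgeR called 0 of the 12, beside 1.68% of all genes. C1qc was lower with HAMSB than with NP (-2.93 on the log2 scale, edgeR adjusted p = 0.0409). For dendritic cell, erythroid, T cell, NK cell and neutrophil markers the median log2 differences of HAMS from NP were -0.85, -2.75, 1.64, 1.33 and 0.79. In HAMSB against HAMS they were 0.40, 2.92, 1.47, 1.66 and 1.48 in that order. In both comparisons edgeR called 0 genes of these lists. In bulk RNA, fewer cells of a type and less RNA per cell cannot be told apart.

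The genes whose log2 level followed Tnfrsf13c most closely over the 16 libraries, among 10005 searched, were Tgif1 (Pearson r = 0.985), B3gnt7 (0.982) and Tob2 (0.971). For Tnfrsf13b they were Snn (0.911), Gbp3 (0.911) and Sec22a (0.902). For Tnfrsf17 they were Dis3l2 (0.923), Agpat4 (0.916) and Pebp1 (0.915). Traf3 was followed by Map4k4 (0.957), Dip2b (0.943) and Ssh1 (0.939), and Traf2 by Pfkl (0.967), Dbnl (0.962) and Gnl1 (0.956). Closest to Map3k14 were Sgsh (0.907), Rhobtb2 (0.905) and Fam73b (0.903). These values describe points that share diets, depth and the scaling, and carry no test.

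Tnfrsf17 (ENSMUSG00000022496, chromosome 16, 11313812 to 11320074, plus strand, 815 exonic bases) had 20 to 54 counts a library, so counting error is large. NP libraries 1, 3, 4 and 5 had 0.614, 0.938, 0.731 and 0.723 CPM. In HAMSA 1, 2, 3 and 6 the level was 1.03, 2.25, 2.26 and 1.46 CPM, each above every NP library. HAMS libraries 1, 4, 5 and 6 had 1.46, 1.43, 0.789 and 0.872 CPM, and HAMSB libraries 1, 2, 5 and 6 had 1.12, 1.08, 0.589 and 0.475 CPM. Both of these groups overlapped with NP and HAMSA. The raw counts, before scaling, summed to 116 with NP, 153 with HAMS, 128 with HAMSA and 134 with HAMSB.

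The mean of Tnfrsf17 was 1.75 ± 0.611 CPM with HAMSA and 0.752 ± 0.135 with NP, a log2 difference of 1.20 ± 0.35 that missed the threshold in edgeR (adjusted p = 0.0737). DESeq2 called it (1.19, adjusted p = 0.0232). Over all 17 other settings the adjusted p ran from 0.0232 to 0.774. The highest came with a covariate for reads that fall outside exons, where the difference was 0.36. Such reads were 9.76 to 12.1% in HAMSA and 13.95 to 15.5% in NP libraries, so their share and the diet cannot be told apart. The same holds for depth, because every HAMSA library had a lower total count than every NP library. HAMS (1.14 ± 0.354 CPM) differed from NP by 0.59 ± 0.34 (adjusted p = 0.366). HAMSA exceeded HAMSB (0.817 ± 0.333 CPM) by 1.08 ± 0.35, short of the threshold (adjusted p = 0.146).

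Tnfrsf17 was set against 7 plasma cell markers (Sdc1, Jchain, Prdm1, Xbp1, Irf4, Mzb1 and Derl3), all detected in every library. The markers summed to 1190 to 1494 CPM with NP, 1171 to 1831 with HAMS, 1527 to 2064 with HAMSA and 878 to 1509 with HAMSB. Jchain, the marker of highest level, had 547 ± 136 CPM with NP and 983 ± 194 with HAMSA. In HAMSA against NP 5 of the 7 had a positive log2 difference, and edgeR called 0. Prdm1 (-0.19) and Irf4 (-0.12) went the other way. Over 16 libraries the log2 level of Tnfrsf17 correlated with the mean log2 level of the markers (Pearson r = 0.720, permutation p = 0.00149, 0.00298 adjusted over 2 relations). Spearman's rho was 0.794 (permutation p = 0.00035, adjusted 0.0007). Within diets, after removal of the diet means, r was 0.580 (permutation p = 0.0470) and rho 0.547 (permutation p = 0.0552). Without HAMSB 5 and HAMS 6, the libraries farthest from the median of the markers, r was 0.789. Markers of some other cells also had a higher median sum in HAMSA than in NP. Libraries overlapped for the erythroid and T cell genes. The median was lower in HAMSA for macrophage or monocyte (275 against 359 CPM), dendritic cell (66.0 against 75.4) and stromal genes (2.75 against 3.35). Summed levels in HAMSA and NP were 412 to 5523 and 60.9 to 1257 CPM for 7 erythroid genes, 80.6 to 332 and 9.15 to 67.0 CPM for 12 neutrophil genes, and 29.8 to 134 and 12.96 to 40.1 CPM for 8 T cell genes. In edgeR 1 of the 12 neutrophil genes rose (Elane, adjusted p = 0.04995) and 1 of 5 NK cell genes rose (Ncr1, adjusted p = 0.0477). Of all genes 1.41% were called in HAMSA against NP. Elane was at 0 in 2 libraries and Ly6g in 3. The part of plasma cell RNA and of these other cells in the Tnfrsf17 level was not tested.

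**Figure D3:**
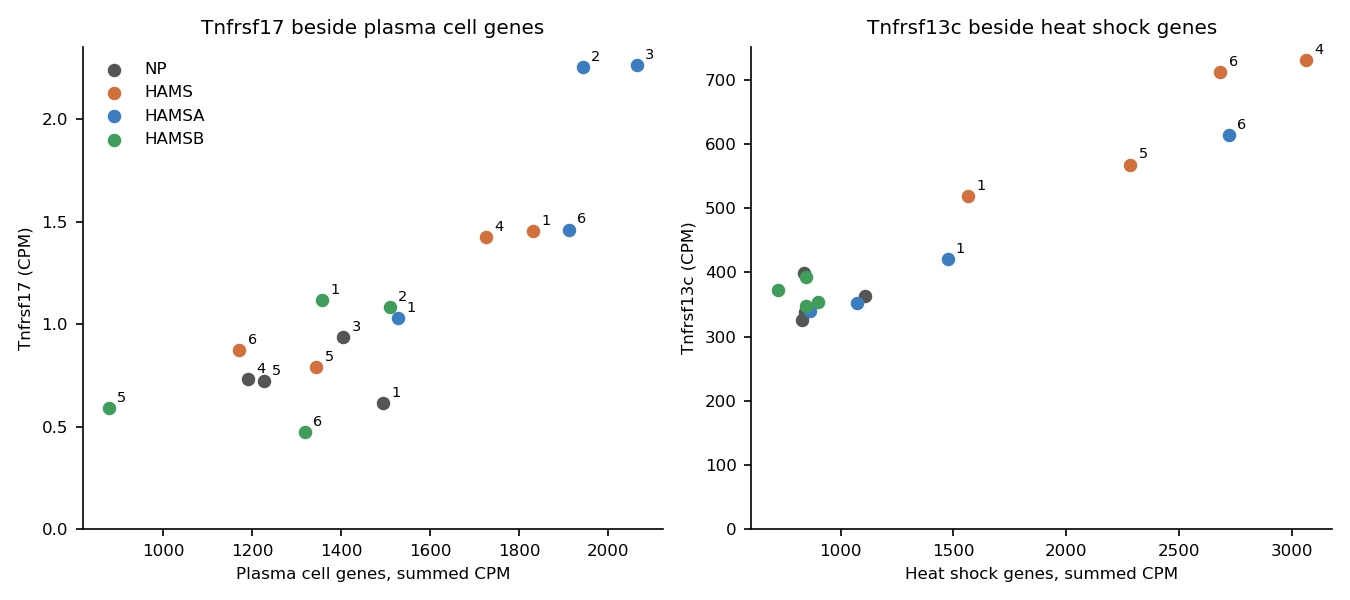
Left, Tnfrsf17 in CPM against the summed CPM of 7 plasma cell markers. Right, Tnfrsf13c in CPM against the summed CPM of 8 heat shock genes, 1 point a library coloured by diet with its number (on the right only outside the dense lower corner). HAMSA 2 and 3 (2.25 and 2.26 CPM) hold the highest Tnfrsf17, and HAMSA 6 lies among the HAMS libraries on the right.

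Tnfsf13b (ENSMUSG00000031497, chromosome 8, 10006467 to 10039072, plus strand, 6868 exonic bases) encodes BAFF itself. It had 3 to 12 counts a library, or 0.0863 to 0.399 CPM, and was the 1 gene of the 7 that did not pass the filter on low counts, so it has no test. The counts summed to 27 with NP, 30 with HAMS, 20 with HAMSA and 34 with HAMSB. In the same order of diets the mean levels were 0.172 ± 0.0744, 0.224 ± 0.0319, 0.268 ± 0.0989 and 0.211 ± 0.0862 CPM. The libraries of all diets overlapped, and the largest ratio of means was 1.55 (HAMSA over NP). With so few counts a difference between the diets was not tested. Its level was also compared with 30 neutrophil, macrophage and dendritic cell markers, of cells known to make BAFF. Over 16 libraries r was 0.362 (permutation p = 0.170, adjusted 0.170) and rho 0.265 (permutation p = 0.322, adjusted 0.322). Within diets r was 0.335 (permutation p = 0.327), and without HAMSA 2 and HAMSB 2, farthest from the median of the markers, r was 0.246.

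In the main edgeR fit none of the 3 intracellular genes passed the threshold in any comparison of 2 diets. Traf3 (ENSMUSG00000021277, chromosome 12, 111166370 to 111267153, plus strand, 7350 exonic bases) encodes the adaptor that holds NIK in check. NP libraries 1, 3, 4 and 5 had 176, 197, 203 and 173 CPM, and HAMS libraries 1, 4, 5 and 6 had 182, 218, 214 and 230 CPM. With HAMSA, libraries 1, 2, 3 and 6 had 184, 132, 147 and 215 CPM, and HAMSB libraries 1, 2, 5 and 6 had 178, 163, 261 and 215 CPM. Libraries of all 4 diets overlapped, and HAMSA and HAMSB spread more widely than NP. The largest Traf3 difference was HAMSA against HAMS, -0.31 ± 0.16 on the log2 scale (edgeR adjusted p = 0.442).

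Traf2 (ENSMUSG00000026942, chromosome 2, 25517982 to 25546940, minus strand, 5101 exonic bases) encodes the adaptor that brings the cIAP ligases to the complex. NP libraries 1, 3, 4 and 5 had 88.3, 98.5, 98.3 and 101 CPM, and HAMS libraries 1, 4, 5 and 6 had 110, 113, 85.3 and 95.9 CPM. With HAMSA, libraries 1, 2, 3 and 6 had 99.7, 114, 123 and 92.7 CPM, and HAMSB libraries 1, 2, 5 and 6 had 95.6, 86.8, 99.2 and 98.0 CPM. All diets overlapped. No Traf2 difference between diets exceeded 0.18 on the log2 scale (HAMSA against HAMSB).

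Map3k14 (ENSMUSG00000020941, chromosome 11, 103219762 to 103267472, minus strand, 6550 exonic bases) encodes NIK, the kinase that starts the noncanonical pathway. Its exons overlap 1700028N14Rik on the same strand, and reads on the overlap were left out of the counts. NP libraries 1, 3, 4 and 5 had 114, 129, 124 and 128 CPM. HAMS libraries 1, 4, 5 and 6 had 109, 110, 104 and 105 CPM, all below NP. HAMSA libraries 1, 2, 3 and 6 had 117, 112, 115 and 113 CPM, all above HAMS, and HAMSB libraries 1, 2, 5 and 6 had 128, 106, 128 and 125 CPM. The log2 difference of HAMS (107 ± 2.81 CPM) from NP (124 ± 6.93) was -0.21 ± 0.07 with an adjusted p of 0.123. With library totals in place of TMM it was -0.30, which passed (edgeR adjusted p = 0.0299). HAMSB (122 ± 11.1 CPM) differed from HAMS by 0.19 ± 0.07 (adjusted p = 0.259), and HAMSA (114 ± 2.21 CPM) by 0.09 (0.568).

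Of the 7 genes, 6 passed the filter and were tested. In HAMS against NP 2 of the 6 were called (Tnfrsf13c higher, Tnfrsf13b lower), beside 4.33% of all genes tested. In HAMSB against HAMS 1 was called (Tnfrsf13c), beside 1.68%. With so few genes these counts are a description, and nothing follows from them about the group. In the other 4 comparisons edgeR called 0 of 6. At an unadjusted p under 0.05 there was 1 in HAMSA against HAMS (Tnfrsf13c) and 1 in HAMSA against HAMSB (Tnfrsf17). There was 1 in HAMSA against NP (Tnfrsf17 again) and 0 in HAMSB against NP. Over all 15021 genes there were 1751, 2918, 3772 and 1035 in that order. DESeq2 called Tnfrsf17 in HAMSA against NP and 0 in the other 3, and limma voom called 0 in all 4. In HAMSA against HAMSB DESeq2 gave an adjusted p to only 5 of the 6. Over all genes DESeq2 called 1295 of 15010 in HAMSA against NP. The edgeR background in these comparisons was 0% of all genes for HAMSA against HAMS and 0.779% for HAMSA against HAMSB. It was 1.41% for HAMSA against NP and 0.0732% for HAMSB against NP. In HAMSA against HAMS, edgeR called 0 of 15021 genes, with 1751 at an unadjusted p under 0.05 and 103 called by DESeq2. For any difference among the 4 diets edgeR called 1 of 6 (Tnfrsf13c, adjusted p = 0.0186), beside 3.78% of all genes.

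Libraries of 2 diets did not overlap for 3 of the 6 genes in HAMS against NP (Tnfrsf13c, Tnfrsf13b and Map3k14), beside 12.6% of all genes. There were 2 such genes in HAMSB against HAMS (Tnfrsf13c and Tnfrsf13b, beside 7.3%), 1 in HAMSA against NP (Tnfrsf17, beside 16.4%) and 1 in HAMSA against HAMS (Map3k14, beside 4.01%). None did in HAMSA against HAMSB, beside 8.81%, or in HAMSB against NP, beside 5.27%.

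**Figure D4:**
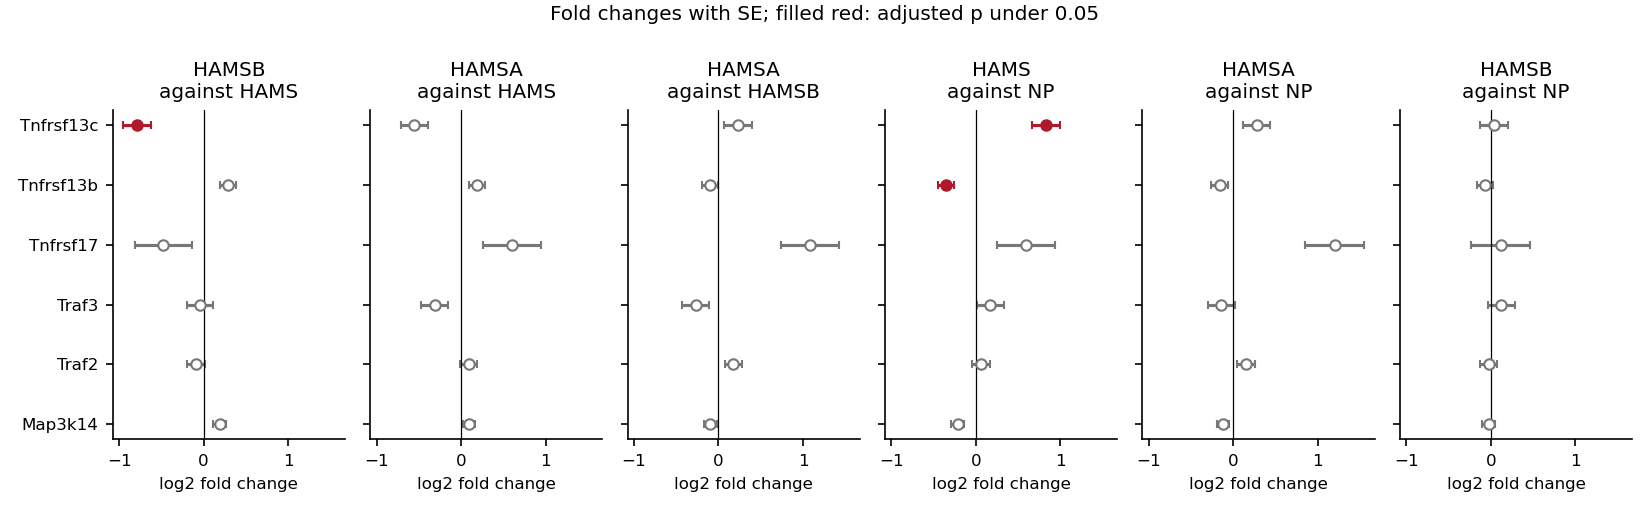
Log2 fold change with SE of the 6 tested genes in each comparison of diets (first diet over second). Filled red points passed the edgeR test, which are Tnfrsf13c in HAMS against NP (0.83) and HAMSB against HAMS (-0.78) and Tnfrsf13b in HAMS against NP (-0.35).

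The rest of the pathway was read from 43 listed genes, all 43 of them tested. In HAMS against NP edgeR called 2 that rose (Bcl2l11 and Birc2) and 0 that fell, and the median log2 difference was -0.05, beside 0.01 over all genes. Of all genes 2.27% rose and 2.06% fell there (341 and 309 genes, or 225 and 573 with library totals in place of TMM). In HAMSB against HAMS edgeR called 0 of the 43 that rose and 1 that fell (Bcl2l11), with a median of 0.03 beside 0.01. Of all genes 0.433% rose and 1.24% fell (65 and 187 genes, or 142 and 141 with library totals). In the other 4 comparisons edgeR called 0 of 43. There, 5 genes in HAMSA against HAMS and 9 in HAMSA against HAMSB had an unadjusted p under 0.05. So did 11 in HAMSA against NP and 2 in HAMSB against NP. Over all 15021 genes there were 1751, 2918, 3772 and 1035 in that order. DESeq2 called 0, 1, 3 and 0 of the 43 in that order, and limma voom 0 in each. Over all genes DESeq2 called 103 of 15010, 576 of 12389, 1295 of 15010 and 124 of 15010. In HAMS against NP DESeq2 called 3 (Relb beside the same 2) and in HAMSB against HAMS 4 (Furin, Relb and Pik3cd beside Bcl2l11). Over all genes it called 1264 of 15010 and 602 of 13845 there. In both comparisons limma voom called the same genes as edgeR. DESeq2 gave an adjusted p to only 42 of the 43 in HAMSA against HAMSB and in HAMSB against HAMS.

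The gene called in both contrasts was Bcl2l11, listed among the survival outputs, which encodes BIM, a protein that drives apoptosis. Its NP libraries 1, 3, 4 and 5 had 103, 68.6, 69.9 and 90.3 CPM and HAMS libraries 1, 4, 5 and 6 had 109, 141, 186 and 167 CPM, with no overlap. HAMSA libraries 1, 2, 3 and 6 had 108, 79.0, 85.7 and 125 CPM, and HAMSB libraries 1, 2, 5 and 6 had 77.6, 70.7, 94.2 and 80.9 CPM. As for Tnfrsf13c, HAMSA 6 was the highest of its diet and every HAMSB library was below HAMS. Bcl2l11 rose by 0.86 ± 0.18 with HAMS against NP (edgeR adjusted p = 0.0147) and differed by -0.90 ± 0.18 with HAMSB against HAMS (0.0170). The first call was lost without NP 3, NP 4 or HAMS 6 and the second without HAMS 5, HAMS 6, HAMSB 1, HAMSB 2 or HAMSB 6. The adjusted p was at most 0.0658 in these fits.

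Birc2, which encodes the ligase cIAP1 that TRAF2 recruits, had 111 ± 13.2 CPM with NP and 142 ± 12.7 with HAMS. It rose by 0.35 ± 0.09 on the log2 scale (edgeR adjusted p = 0.04995, just under the threshold). The call held in 6 of 17 other settings, with adjusted p up to 0.181, and was lost without any library but NP 1. The other 4 genes of the complex and its regulators (Birc3, Traf1, Otud7b and Cd40) did not pass. In the remaining lists edgeR and limma voom called no gene in any comparison of 2 diets. They cover APRIL with the proteases and binding molecules (6 genes), noncanonical NF-κB (Nfkb2, Relb and Chuk), canonical NF-κB (8), the adaptors of TACI (4), the surface genes that BAFF raises (Cr2, Fcer2a and Icosl) and the co-receptor and PI3K genes (6). DESeq2 called 5 genes of these lists. Relb, which pairs with processed p100, was called by DESeq2 in 4 comparisons, with edgeR log2 values of 0.26 in HAMS against NP, 0.25 in HAMSA against NP, -0.31 in HAMSB against HAMS and 0.31 in HAMSA against HAMSB. The edgeR adjusted p of these was 0.0952, 0.0996, 0.0858 and 0.106. In HAMSB against HAMS DESeq2 also called Furin, a protease that cleaves BAFF and APRIL (edgeR 0.26, adjusted p = 0.0887), and the kinase subunit Pik3cd (0.39, 0.104). In HAMSA against NP it called Sdc1, a surface proteoglycan that binds APRIL (0.68, 0.0778), and the complement receptor Cr2 (-0.53, 0.0838). Of the 8 survival outputs, Bcl2l11 alone passed, with edgeR, limma voom or DESeq2. Reads of Bcl2a1a, Bcl2a1b and Bcl2a1d, near-identical copies, are uncertain.

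**Figure D5:**
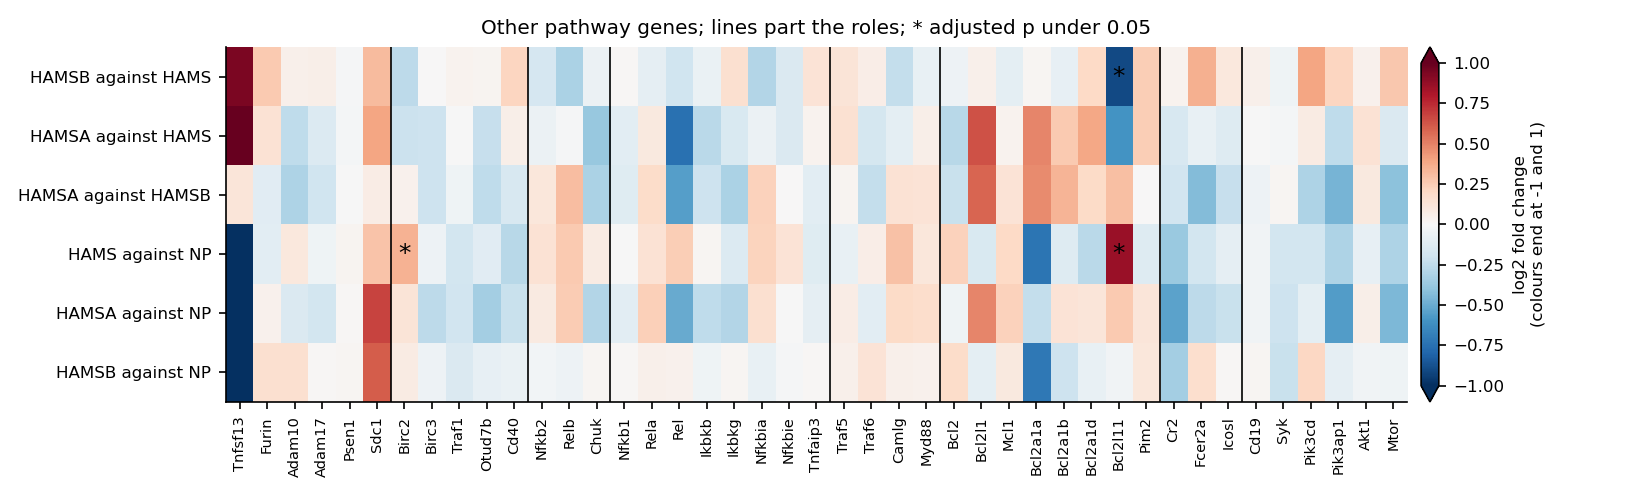
Log2 fold change (colour) of 43 other pathway genes, in columns grouped by role, in the 6 comparisons of diets (rows). Stars mark the 3 values past the edgeR test, which are Bcl2l11 in HAMS against NP (0.86) and in HAMSB against HAMS (-0.90), and Birc2 in HAMS against NP (0.35).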

How the data were processed

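The data are stranded poly(A) RNA-seq of 16 libraries. Alignment by STAR, counting by featureCounts (Subread), edgeR and limma are named in the submitters' processing notes. Their versions, the build and the annotation are not given in the sources used here. Raw counts per gene, unscaled and for reverse-stranded libraries, are what the authors deposited. Totals were 15053965 to 30723337 counts with HAMSA and 31707731 to 46206200 in the other diets. Reads mapping to several places or to overlapping genes are left out. Coordinates and exon lengths come from GENCODE M21 (GRCm38), possibly another annotation than the authors used.

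Counts were tested in R 4.3.3 with edgeR 4.0.16 (filterByExpr with a minimum count of 10, TMM, 1 mean per diet over all 16 libraries, 12 residual degrees of freedom). CPM printed are counts scaled by the sum over filtered genes times the TMM factor. DESeq2 1.42.0 and limma voom (limma 3.58.1) were among the alternatives. The edgeR script was tested on simulated data. Correlations used 100000 permutations. The diets were fixed by the labels. The genes and lists were chosen with earlier results of these data known. All 7 genes, the pathway genes past the test and the 3 genes most alike to each tested gene (mean log2 CPM of at least 1) are named. Camlg is Caml in the table. Promoter windows are RefSeq's, and the receptors' protein sequences, intended for display, are not used here.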

Additional observations from a re-analysis of the deposited data

Results flagged for a closer look

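Among 32 groups of 4 libraries checked (the 7 genes and the receptor ratio in each diet), 1 had a library far from the rest. Map3k14 in HAMSB 2 was at 105.5 CPM, with the other 3 HAMSB libraries between 125 and 128. The gap to its nearest neighbour was 0.862 of the range, above the 95% critical value of Dixon's test. Chance alone is expected to mark about 1 in 20 groups. Without HAMSB 2, the log2 difference of Map3k14 between HAMSB and NP was 0.04 in place of -0.02, and neither passed the test.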

How the results depend on the processing

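Of 612 fold changes of the 6 tested genes under other settings, 574 kept their direction and their side of the threshold, 18 were no longer called, 3 were newly called and 17 changed sign, each of the last from a difference that had not passed. The count of genes called in HAMS against NP, 2, became 3 with library totals (Map3k14 added) and 1 with RLE scaling, 1 without a filter, 1 with a filter of 1 CPM in 4 libraries, 1 with only the diets compared and 1 with the replicate block, and was 1 to 2 when single libraries were left out (Tnfrsf13b was the gene lost). It became 1 of 6 in HAMSA against NP with DESeq2 (Tnfrsf17). For any difference among diets it became 3 with DESeq2, which called 1894 of 15010 genes there. It became 2 with library totals and 2 with a covariate for reads outside exons. In leave-one-out fits it was 0 to 1, being 0 without HAMS 4 or HAMS 6. Leave-one-out counts were 0 to 1 in HAMSB against HAMS and 0 to 1 in HAMSA against HAMS.

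The sign of Traf3 changed in HAMSB against HAMS with library totals (0.031) and the replicate block (0.076), and with the covariate in HAMSA against HAMSB (0.071) and HAMSA against NP (0.19). Traf2 in HAMS against NP was -0.021 with library totals. With the replicate block in HAMSB against NP, Tnfrsf13c was -0.028, Traf2 0.069 and Map3k14 0.035. Leaving out single libraries gave -0.19 to 0.049 for Traf3 in HAMSB against HAMS and -0.0038 to 0.14 for Traf2 in HAMS against NP. In HAMSB against NP it gave -0.00013 to 0.091 for Tnfrsf13c, -0.071 to 0.31 for Tnfrsf17, -0.013 to 0.22 for Traf3, -0.067 to 0.015 for Traf2 and -0.062 to 0.040 for Map3k14. The causes were not tested.

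The labels do not say whether equal replicate numbers pair libraries. Deviations of same-numbered libraries correlated between -0.25 and 0.49, which cannot settle it. The block is therefore given only as another setting. With it, edgeR called 0 genes of the whole table in HAMSA against NP and 2 in HAMSA against HAMSB. Without it these counts were 212 and 117. Depth limits Tnfsf13b and Tnfrsf17 most. Genes called over the whole table in HAMS against NP numbered 650 with edgeR, 1264 with DESeq2, 1157 with the covariate and 378 with the block. In HAMSB against HAMS they numbered 252, 602, 402 and 163 in that order, and 136 with only the diets compared.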
